A study of Mus musculus with 115 samples.

Results

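The genes described here are the protein-coding genes of mouse chromosome 4 between positions 3722677 and 46175356 (build GRCm38), an interval that was mapped for seminal vesicle tumor burden in a cross of TRAMP mice. Of the 45699 genes in the expression table, 609 overlapped the interval and 240 of these were protein-coding by GENCODE M21. Leaving out 9 named genes (Melk, Nbn, Fancg, Rad54b, Ccne2, Tpm2, Ddx58, Car9 and Creb3) and the 4 genes whose names start with Nduf or Rps left 227 members, out of 21515 protein-coding genes in all. The choice used position and names, and no expression value.

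RNA was sequenced from prostate tumor tissue of F2 mice, all of 1 group, and each library was taken as 1 mouse. Each mouse was the offspring of a TRAMP x WSB/EiJ intercross and carried the TRAMP transgene. TRAMP mice express SV40 T antigens under a probasin promoter, which is active in prostate epithelium, and the inbred strain WSB/EiJ was derived from wild mice. All were males, and where the prostate was small the RNA came from its ventral lobe. No control without the transgene and no library of seminal vesicle tissue was analysed here, so the members were followed in prostate only.

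Values were given as TPM, transcript levels that are scaled by transcript length and sum to the same total in each library. The 20 most abundant genes together held 48.9% to 81.8% of a library (median 66.3%), so a change in those few genes moves the TPM of all others. Because the labels form 1 group, members were compared with 4 marker genes measured in the same libraries. Svs5 encodes a secreted protein of the seminal vesicle, Mki67 a nuclear protein of dividing cells, Chga the neuroendocrine granule protein chromogranin A, and Tgm4 a transglutaminase secreted by the prostate. A member is said to rise or fall with a marker where the limma coefficient of log2(TPM + 1) on the marker's log2(TPM + 1) had an adjusted p under 0.05 (Benjamini-Hochberg over all genes tested).

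The libraries fell apart along the first principal component, which held 48.7% of the variance, into a larger part of 79 and a smaller part of 36. Relations were computed inside these parts, and as an alternative over all libraries with a term for the part. The summed TPM of 9 prostate luminal markers ran from 312 to 60857 in the 79 libraries and from 4.98 to 2702 in the 36, so some libraries of the smaller part held next to none of the transcripts that mark the labelled tissue. In bulk tissue, fewer cells of a type and less RNA per cell cannot be told apart.

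A set of 6 libraries of the larger part, whose names run in series from W5000 to W5005, stood at the low end for several genes. Mki67 was at 0.39 to 0.93 TPM in these 6, beside 0.4 to 25.7 TPM in the other 73, and Gm11808 was at 402 to 592 TPM, beside 439 to 1721 TPM. The labels give them no group of their own, but all 6 stand in a run of libraries that closes both the sample list and the columns of values. The other libraries of that run were all of the smaller part. Gm11808 was at 304 to 546 TPM in those, beside 415 to 1527 TPM in the rest of the smaller part. Whether the run shaped relations in the smaller part was not tested, since it was left out of no fit there. Counts for the larger part are given below with and without the 6. The study's text describes fewer expression libraries than the table holds without naming them, so all were used.

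An interval of this size holds genes that share nothing but their position. Among its genes are the membrane water channels Aqp3 and Aqp7, the lymph node chemokines of the Ccl19 and Ccl21 family, the endoplasmic reticulum genes Vcp and Ufl1, and genes of chromatin, DNA repair and signalling such as Chd7, Mms22l and Lyn. VCP is an ATPase that pulls proteins out of the endoplasmic reticulum membrane for degradation, and UFL1 is the ligase that attaches the ubiquitin-like modifier UFM1, both of which serve cells that secrete large amounts of protein.

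The promoters of 4 members on which the results below turn are shown first, from RefSeq on GRCm38.p6, each running from 250 bases before to 50 bases after the start of transcription. Capitals mark a GC box (GGGCGG or its reverse complement CCGCCC) or a TATA box (TATAAA or TTTATA). The androgen receptor half-site (AGAACA or TGTTCT) was also searched, and all 3 motifs were read on both strands.
Ufl1, chr4:25281772-25282071, minus strand: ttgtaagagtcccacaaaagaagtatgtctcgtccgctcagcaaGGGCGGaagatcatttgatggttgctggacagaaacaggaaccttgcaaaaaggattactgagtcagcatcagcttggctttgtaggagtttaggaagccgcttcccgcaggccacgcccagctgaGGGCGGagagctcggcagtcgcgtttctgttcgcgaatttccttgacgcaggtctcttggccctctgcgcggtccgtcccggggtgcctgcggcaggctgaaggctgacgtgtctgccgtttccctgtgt
Pm20d2, chr4:33189688-33189987, minus strand: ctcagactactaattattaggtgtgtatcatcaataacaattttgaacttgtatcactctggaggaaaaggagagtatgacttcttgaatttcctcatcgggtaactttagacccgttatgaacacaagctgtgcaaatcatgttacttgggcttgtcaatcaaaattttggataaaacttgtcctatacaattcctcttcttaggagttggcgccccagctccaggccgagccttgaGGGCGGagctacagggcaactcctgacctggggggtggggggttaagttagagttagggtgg
Aqp3, chr4:41098134-41098433, minus strand: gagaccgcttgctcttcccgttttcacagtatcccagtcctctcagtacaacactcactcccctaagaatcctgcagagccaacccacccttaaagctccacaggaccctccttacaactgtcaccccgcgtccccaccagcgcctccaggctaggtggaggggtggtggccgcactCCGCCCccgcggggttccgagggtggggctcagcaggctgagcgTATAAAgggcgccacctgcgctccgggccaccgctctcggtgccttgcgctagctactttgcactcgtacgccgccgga
Ccl21a, chr4:42773942-42774241, minus strand: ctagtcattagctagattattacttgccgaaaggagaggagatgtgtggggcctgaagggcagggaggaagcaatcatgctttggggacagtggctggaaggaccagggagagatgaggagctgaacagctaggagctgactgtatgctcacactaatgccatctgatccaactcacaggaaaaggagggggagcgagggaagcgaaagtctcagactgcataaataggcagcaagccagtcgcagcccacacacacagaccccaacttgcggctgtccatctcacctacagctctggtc
The Ufl1 promoter held 2 GC boxes, those of Pm20d2 and Aqp3 held 1 each, and Aqp3 also had a TATA box at base 222. None of the 3 motifs was found in the window of Ccl21a, and the androgen half-site was found in none of the 4. Promoters were found for 146 members, 195 in number, and 57.9% of these held a GC box, against 35.7% of 32851 promoters of all genes. A TATA box was present in 8.72% against 13.6%, and an androgen half-site in 18.5% against 18.97%. The 2 sets are unlike, since the 32851 promoters cover 27025 gene names, more than the 21515 protein-coding genes of the table. Median GC content was 58% over the promoters of members and 52.7% over all promoters. No entry was found for Fut9.

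Most members were expressed at low or moderate level. A member was counted as detected where 50% of libraries or more had it at 1 TPM, and 130 of 227 members (57.3%) were, against 53.1% of all protein-coding genes. A total of 92 members reached 1 TPM in every library, 36 reached it in none, and Ccl27b was listed at 0 throughout. None of the 4 olfactory receptor genes was detected, and 2 of the 18 members with a Gm number were.

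The highest level belonged to Gm11808, with a mean of 987 ± 374 TPM (SD over all libraries). Near-identical transcripts exist outside the interval, so its reads could not be assigned with certainty. Next came Vcp with 97.1 ± 26.3 TPM, Clta, the clathrin light chain A, with 92.6 ± 26.5 TPM, and Sdcbp, the adaptor syntenin, with 83.8 ± 27.8 TPM. The cochaperones Dnaja1 (63.6 ± 23.8 TPM) and Bag1 (59.8 ± 22.4 TPM) and the secretory pathway GTPase Rab2a (59.7 ± 16.3 TPM) followed. Pnisr, Stoml2 and Chmp5 closed the 10 highest, with means of 40.8, 40.6 and 37.8 TPM. Neighbours in this order after Gm11808 differed by less than 1 SD, except Rab2a and Pnisr. The 90th percentiles of these 10 genes were between 1.91 (Vcp) and 3.24 (Gm11808) times the 10th.

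By list, all 15 members of the ubiquitin and proteostasis list were detected, 18 of 19 of RNA processing, ribosome assembly and DNA repair, and 16 of 18 of the endoplasmic reticulum, sugar and secretory pathway. Only 3 of 15 members for water, ion and small-molecule transport were detected, and 4 of 11 chemokine, cytokine receptor and lymphoid genes. The highest of these 2 lists were Slc25a51, a mitochondrial carrier (17.04 ± 5.19 TPM), and Il11ra1, an interleukin-11 receptor chain (25.7 ± 12.7 TPM). Tmem64 led the kinases and signalling list with 34.5 ± 22.5 TPM, Hint2, a mitochondrial hydrolase, led the metabolic list with 37.2 ± 16.7 TPM, and Dctn3, a dynactin subunit, led the matrix, adhesion and cytoskeleton list with 34.7 ± 9.59 TPM. Of the transcription and chromatin list 8 of 13 were detected, with Chd7 highest.

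The 5 detected members with the largest ratio of the 90th to the 10th percentile had ratios of 30.9 to 399.5. Esrp1, an epithelial splicing regulator, ran from 0 to 38.99 TPM with a median of 15.6 TPM. Chd7, a chromatin remodeller, ran from 0.5 to 117 TPM with a median of 1.93 TPM. Fut9, which adds fucose to cell surface sugars, ran from 0.03 to 46.5 TPM with a median of 9.56 TPM. All 3 were below 1 TPM in some libraries, as the plot of levels shows. Ccl21a, a chemokine of lymphatic vessels and lymph nodes, ran from 0 to 34.97 TPM with a median of 5.84 TPM. Arhgef39, a guanine nucleotide exchange factor, ran from 0.28 to 28.9 TPM with a median of 1.87 TPM. Outside this rule and chosen after its values were seen, Kif24, a kinesin, had a median of 4.23 TPM and reached 913 TPM in 1 library of the smaller part, with 347 TPM in the next highest.

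**Figure D1:**
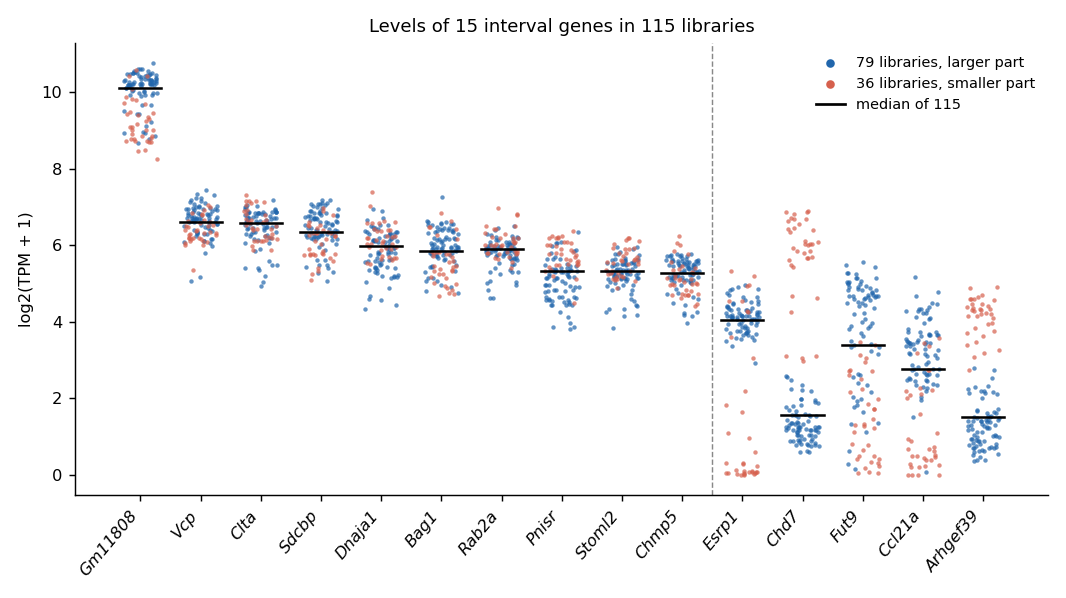
The log2(TPM + 1) of the 10 members with the highest mean and, right of the dashed line, the 5 detected members with the largest ratio of 90th to 10th percentile, with 1 point per library (blue, 79 libraries of the larger part; orange, 36 of the smaller part) and a bar at the median of all libraries. Vcp and Clta stay at 29.7 TPM or more in every library, while Esrp1 and Ccl21a include libraries at or near 0.

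Several members followed Tgm4 closely. Tgm4 itself fell apart in the larger part, into 59 libraries at 2901 to 16895 TPM and 20 at 0.64 to 2469 TPM, so its relations were tested within the 59 (a choice of libraries made after the data were seen). Of 130 members tested, 33 (25.4%) rose with Tgm4 and 10 (7.69%) fell, beside 21.9% rising and 12.1% falling of all 12981 genes tested. The median r was 0.14 over the members and 0.04 over all genes.

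Ufl1 ran from 11.8 to 80.7 TPM in the 59 libraries with a median of 41.95 TPM, and it rose with Tgm4 with r = 0.86, a slope of 0.62 ± 0.0504 (SE) log2 units per doubling of Tgm4 and an adjusted p of 1.07e-15. Fut9 ran from 7.92 to 46.5 TPM with a median of 24.4 TPM, and rose with r = 0.83, a slope of 0.74 ± 0.0653 (SE) and an adjusted p of 2.59e-14. Pm20d2, a peptidase of the metallopeptidase M20 family, ran from 1.23 to 8.09 TPM with a median of 4.18 TPM and rose with r = 0.75 (adjusted p = 8.72e-10). Spearman's rho was 0.82, 0.78 and 0.68, and each permutation p was 1e-05, the smallest that 100000 resamples can give. Leaving out the 2 libraries farthest from the Tgm4 median gave r of 0.84, 0.81 and 0.71. Scatter plots of these 3 genes show an even rise across the 59 libraries and no gap among them.

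The next 3 were Vcp (r = 0.66, 34.9 to 174 TPM), Nudt2, which cleaves diadenosine tetraphosphate (r = 0.65, 6.63 to 18.7 TPM), and Tox, a nuclear HMG-box factor (r = 0.59, 0.64 to 5.74 TPM), with adjusted p from 4.58e-07 to 1.64e-05. Spearman's rho was 0.61, 0.58 and 0.56, with permutation p of at most 2e-05 for r and for rho. By list, 7 of 16 tested members of the endoplasmic reticulum, sugar and secretory pathway rose (median r 0.26) and 1 fell, and 7 of 15 of the ubiquitin and proteostasis list rose (median r 0.21) and 0 fell. Both lists hold Vcp, Ufl1 and Ube2j1. Of the kinases and signalling list 0 rose and 3 of 11 fell, with a median r of -0.13. Under median-of-ratios scaling 4 of that list rose and 5 fell. Of all protein-coding genes tested, 23.1% rose and 11.3% fell on TPM, and 42.9% and 23.2% under that scaling.

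The 6 members with the lowest r among those that fell with Tgm4 follow. Gem, a small GTPase, ran from 0.18 to 5.81 TPM with r = -0.48. Mob3b, a kinase adaptor, ran from 0.96 to 4.79 TPM with r = -0.47. Chd7 ran from 0.5 to 2.98 TPM with r = -0.45. Then came the skin chemokine Ccl27a (r = -0.42), Gne, the enzyme that starts sialic acid synthesis (r = -0.42, 5.8 to 188 TPM), and the tyrosine kinase Lyn (r = -0.41). Adjusted p of these 6 ran from 0.000894 to 0.00567, rho from -0.50 to -0.35 and permutation p from 9e-05 to 0.00648. With the other 3 markers as covariates Ccl27a (adjusted p = 0.137) and Lyn (adjusted p = 0.0894) were no longer called.

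**Figure D2:**
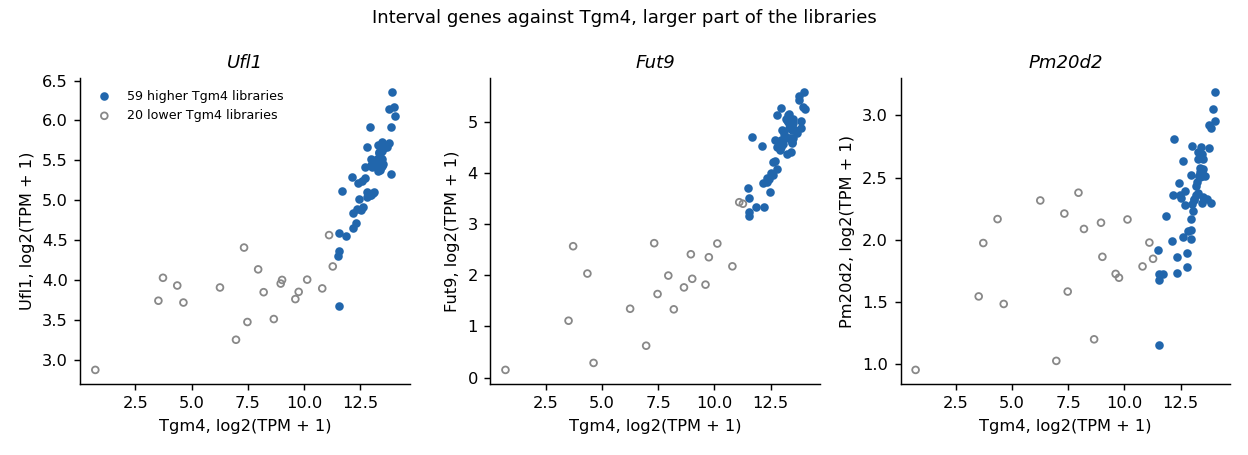
The log2(TPM + 1) of Ufl1, Fut9 and Pm20d2 against that of Tgm4 in the larger part, with the 59 higher Tgm4 libraries filled and the 20 lower ones open. Within the filled points r was 0.86, 0.83 and 0.75.

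Other markers moved with Tgm4 in these libraries. Svs5 fell with it (r = -0.45), as did Msmb, another secreted prostate protein (r = -0.51, 0.6 to 3805 TPM). With Msmb in place of Tgm4 the direction turned for each of the 12 members named above. Ufl1 then had r = -0.44 (adjusted p = 0.00406) and Fut9 r = -0.47 (adjusted p = 0.00156), while Gne had r = 0.65 and Chd7 r = 0.62. Of the 7 prostate luminal markers tested against Tgm4, 3 rose with it and 2 fell, Msmb being among those that fell. Whether the lobes of the prostate were sampled in unequal amounts was not tested. All 33 and all 10 calls held under median-of-ratios scaling, where 66 members rose and 26 fell (beside 40.3% and 23.2% of all genes). After rescaling without the 20 largest genes 28 rose and 43 fell (21.5% and 33.1%, beside 19.2% and 34.9% of all genes), all 28 and 10 of the 43 having been called in the same direction on TPM. Without the 2 libraries farthest from the Tgm4 median 20 rose and 17 fell, beside 14.6% and 17.9% of all genes. Over all libraries with a term for the part 16 rose and 34 fell, beside 11.8% and 23.1%. Without the 4 of the 59 libraries that were named in series 22 rose and 11 fell, beside 15.9% and 12.3%. In the 36 libraries of the smaller part, where 34 had Tgm4 at 0.77 to 18.7 TPM, 0 of 158 members were called by limma. Of all 15511 genes 0.761% rose and 0.193% fell there. An unadjusted p under 0.05 was found for 24 of the 158 members and for 2376 of the 15511 genes.

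Ufl1 and Fut9 lie 0.33 Mb apart on the same strand and moved together. In the 59 libraries r between them was 0.90 (rho = 0.88, permutation p = 1e-05). Over the whole larger part both fell into separate states by a mixture of 2 normal distributions, so r was taken within them. Ufl1 had 26 libraries at 6.36 to 24.2 TPM and 53 at 25.3 to 80.7 TPM, and Fut9 had 33 at 0.11 to 14.9 TPM and 46 at 15.8 to 46.5 TPM. All 26 lower Ufl1 libraries were among the 33 lower Fut9 libraries, and r between the genes was 0.82 within the 26 and 0.84 within the 53. The 20 lower Tgm4 libraries were all in the lower state of both genes. Ufl1 shared 96 of its 5706 exon bases with the antisense gene Gm11906, and Fut9 shared none with any gene of the table.

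Mki67 ran from 0.39 to 25.7 TPM in the 79 libraries, with a median of 4.23 TPM and no gap. On TPM, 82.6% of 132 members rose with it and 2 (1.52%) fell, but 76.4% of all 13413 genes rose and 1.44% fell, so the count says little about the interval. The median r was 0.46 over the members and 0.45 over all genes. With median-of-ratios scaling, which removes the common shift, 22 members rose and 32 fell (40.7% of calls higher, against 98.2% on TPM), 12 members that rose on TPM were called in the opposite direction, and the median slope of all genes went from 0.19 to -0.0027 log2 units per doubling of Mki67. The 22 and 32 members were 16.7% and 24.2% of those tested, beside 23.1% and 19.5% of all genes. After rescaling without the 20 largest genes 47 rose and 15 fell, or 35.6% and 11.4%, beside 35.4% and 7.997% of all genes. Without the 6 libraries named in series 95 members rose (71.97%) and 2 fell, beside 72.6% and 1.801% of all genes.

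All 22 members that rose under median-of-ratios scaling were also called on TPM and after the other rescaling. Mms22l, which with its partner TONSL repairs stalled replication forks, ran from 0.54 to 15.9 TPM with a median of 2.63 TPM, and had r = 0.95 with Mki67, a slope of 0.76 ± 0.0289 (SE) and an adjusted p of 7.3e-39. Arhgef39 ran from 0.28 to 5.86 TPM and had r = 0.89 (adjusted p = 2.11e-26). Casp8ap2, a caspase-8 binding protein required for histone gene expression, ran from 1.36 to 11.5 TPM and had r = 0.80 (adjusted p = 5.38e-18). Their r under median-of-ratios scaling was 0.93, 0.84 and 0.70, so these 3 rose beyond the shift shared by most genes. Spearman's rho was 0.95, 0.91 and 0.78, each with a permutation p of 1e-05, and without the 2 libraries farthest from the Mki67 median r was 0.94, 0.88 and 0.78. Mms22l also rose within the smaller part (r = 0.83, n = 36, adjusted p = 5.68e-08). The zinc finger gene Zbtb5, the nuclear cap-binding gene Ncbp1 and Osgin2 followed with r of 0.74, 0.71 and 0.71 on TPM and 0.60, 0.44 and 0.51 under median-of-ratios scaling. In the smaller part Zbtb5 (r = 0.33, adjusted p = 0.101) and Ncbp1 (r = 0.16, adjusted p = 0.456) were not called.

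Of the RNA processing, ribosome assembly and DNA repair list, 17 of 18 rose on TPM (median r 0.60) and 4 rose and 3 fell under median-of-ratios scaling. For the ubiquitin and proteostasis list the counts were 13 of 15 rising on TPM and 1 rising and 4 falling under that scaling. Of all protein-coding genes tested, 80.6% rose on TPM, and 24.9% rose and 18.4% fell under that scaling. The list counts therefore say little about these lists. The 2 members that fell on TPM were Ufl1 and Fut9 (adjusted p = 0.0112 and 0.0209). With Top2a in place of Mki67 neither was called (adjusted p = 0.0636 and 0.0645), and the call of Fut9 was also lost with a pseudocount of 0.1 (0.0568) and over all libraries with a term for the part (0.114). Within their own states the relation with Mki67 was not detectable on TPM, with r between -0.24 and 0.066 and permutation p from 0.0782 to 0.944. Under median-of-ratios scaling r within these states was -0.52 and -0.44 for Ufl1 and -0.098 and -0.43 for Fut9, in the lower and the higher libraries.

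**Figure D3:**
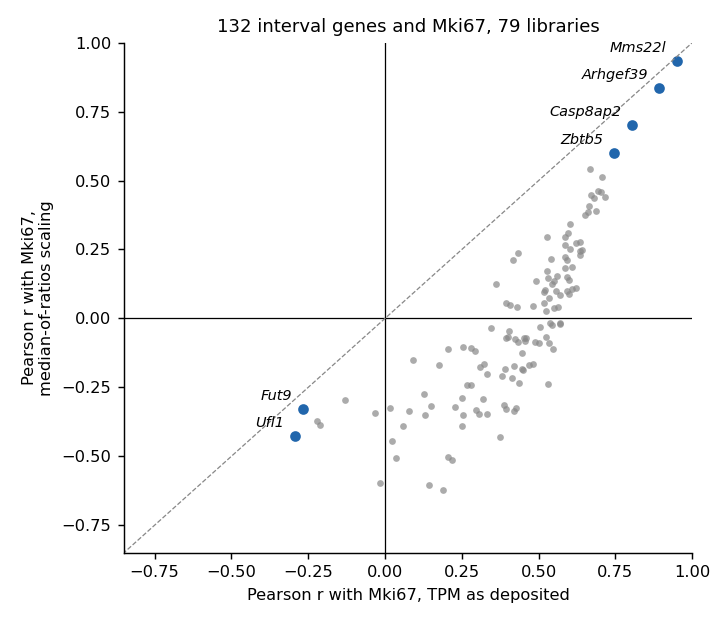
Pearson r with Mki67 of the 132 members tested in 79 libraries, computed on TPM as deposited (horizontal axis) and after median-of-ratios scaling (vertical axis), with 1 point per gene and a dashed line of equality. Nearly all points lie right of 0 on TPM, whereas after scaling they spread on both sides of 0 and Mms22l, Arhgef39, Casp8ap2 and Zbtb5 stay at 0.60 or above.

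The interval was mapped for tumor burden of the seminal vesicle, and how Svs5 in prostate libraries relates to that burden was not tested. Svs5 had few relations with the members. It ran from 0.64 to 63656 TPM in the 79 libraries with a median of 352.9 TPM, and the mixture of 2 normal distributions fell just short of separating it (fall in BIC 9.64, limit 10). Of 132 members, 1 rose (0.758%) and 0 fell by limma, beside 1.61% and 0.216% of all 13413 genes. An unadjusted p under 0.05 was found for 21 of the 132 members and for 1914 of the 13413 genes. All 8 tested genes of the seminal vesicle list rose with Svs5.

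The member that rose was Ccl21a, which ran from 0.05 to 34.97 TPM with a median of 9.37 TPM in these libraries and had r = 0.39, a slope of 0.0745 ± 0.0195 (SE) log2 units per doubling of Svs5 and an adjusted p of 0.0211. Spearman's rho was 0.35 (permutation p = 0.00156) and r was 0.33 once the 2 libraries most distant from the Svs5 median were dropped. With those 2 left out the adjusted p was 0.0525, on ranks 0.0501 and with Svs4 in place of Svs5 0.136, so the call was lost in each, as it was in the 37 lower and the 42 higher Svs5 libraries taken alone (r = 0.13 and 0.29). Over the other 6 alternatives fitted to the whole larger part or to all libraries the adjusted p ran from 0.000579 to 0.0299. One library, low in both genes, lies apart in the scatter of Ccl21a against Svs5.

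Ccl21a has near-identical copies in the interval. Gm21541, whose transcript matched that of Ccl21a at 95% identity or more, ran from 0 to 18.2 TPM, tracked Ccl21a with r = 0.84 (permutation p = 1e-05) and had r = 0.32 with Svs5 (adjusted p = 0.103). The other copies Ccl21b and Gm10591 had means of 0.008 TPM each, and reads may have been split among all of them. Across the 79 libraries Ccl21a followed the summed TPM of 5 lymphatic endothelial markers (Lyve1, Prox1, Flt4, Mmrn1 and Reln), a list made after the values were seen, with r = 0.71, or 0.47 under median-of-ratios scaling. Between the parts the sum and Ccl21a went apart. The sum had a median of 6.3 TPM in the larger part and 37.2 TPM in the smaller, where 23 libraries had Ccl21a at 1.15 TPM or less. Of the 3 genes of that list tested against Svs5, 0 were called. The part of lymphatic vessels in the relation of Ccl21a with Svs5 was not tested.

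Further members reached the threshold for Svs5 only under other settings. Median-of-ratios scaling called 9 higher (Aqp3, Enho, Npr2, Reck, Penk, Fam110b, Ccl27a, Gm21541 and Ccl21a) and 5 lower (Ube2j1, Ncbp1, Dcaf12, Wwp1 and Ripk2), beside 4.41% and 3.93% of all genes. Without the 2 libraries farthest from the Svs5 median 1 rose and 5 fell (0.752% and 3.76%), beside 1.74% and 3.75% of all genes. With the other 3 markers as covariates 3 rose and 7 fell (2.27% and 5.30%), beside 3.47% and 4.91%. Without the 6 libraries named in series Gm21541 and Ccl21a rose and 0 fell by limma, beside 1.52% and 0.262% of all genes. An unadjusted p under 0.05 was found there for 20 of 132 members and for 1789 of all 13381 genes. On ranks Fam110b rose and Vcp and Unc13b fell, beside 1.85% and 1.23% of all genes. Fam110b ran from 0.32 to 3.06 TPM, with r = 0.37 and an adjusted p of 0.0594 on TPM. It also followed the summed TPM of 8 smooth muscle and stroma genes (r = 0.84, permutation p = 1e-05, or 0.70 under median-of-ratios scaling), of which 0 were called with Svs5. In the 36 libraries of the smaller part, where Svs5 ran from 0.44 to 69.8 TPM, 0 of 158 members were called by limma. Of all 15511 genes 0.355% rose and 0.0129% fell there. An unadjusted p under 0.05 was found for 28 of the 158 members and for 2666 of the 15511 genes.

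Aqp3 and Aqp7 lie 0.04 Mb apart and encode water and glycerol channels. Within the larger part 11 of 132 members tested (8.33%) had separate states, beside 7.03% of 11843 protein-coding genes, and the channels were among them. Aqp3 had 41 libraries at 0 to 0.28 TPM and 38 at 0.43 to 46.8 TPM, with a median of 3.35 TPM in the 38. Aqp7 had 41 libraries at 0.01 to 0.78 TPM and 38 at 0.86 to 24.8 TPM. Both were lower in 30 libraries and both higher in 27, and in 11 libraries each only one of them was higher. Within the 38 higher Aqp3 libraries no relation with Aqp7 was detectable (r = 0.11, permutation p = 0.513). The same was true of Svs5, with r = 0.21 (permutation p = 0.202) within the 38 and 0.014 (permutation p = 0.934) within the 41. Over all 79 libraries, which joins its lower and higher libraries, Aqp3 had r = 0.34 with Svs5 (permutation p = 0.00171, limma adjusted p = 0.07). It was called with a pseudocount of 0.1, under median-of-ratios scaling, after rescaling without the 20 largest genes and without the 2 farthest libraries. The same held over all libraries with a term for the part. It was not called on ranks, with no filter, with covariates, with Svs4 or without the 6 libraries named in series.

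AQP3 is also known from the urothelium, which lines the bladder and urethra. Within its 38 higher libraries Aqp3 followed the summed TPM of 5 uroplakin genes, a list made after the values were seen, with r = 0.40 (permutation p = 0.0129, adjusted 0.0162 over 5 relations with marker sums) and rho = 0.31 (permutation p = 0.0553). For Aqp7 in its own 38 libraries r was 0.22 (permutation p = 0.185). The uroplakin sum ran from 1.27 to 356 TPM in the larger part, and whether urothelium in the dissected tissue plays a part in the levels of Aqp3 was not tested.

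The other members with separate states in the larger part were Gm11808, Smu1, Chmp5, Dctn3, Clta, Tomm5 and Exosc3, each with 11 to 13 lower libraries. Chmp5 and Clta, for example, were both lower in 10 libraries and both higher in 67. The lower libraries of these 7 genes had a median scaling factor of 0.617 to 0.742, against 0.918 to 0.957 in the higher ones, and under median-of-ratios scaling Clta alone of the 7 still separated. Fut9, Aqp3 and Aqp7 separated under both scalings, and Ufl1 on TPM only. With a pseudocount of 0.1, 9 of the 11 separated, and Fut9 and Aqp7 did not. All 6 libraries named in series were among the lower libraries of each of the 7 genes and among the higher libraries of Aqp3. Without these 6 libraries 5 of the 11 still separated (Gm11808, Ufl1, Fut9, Aqp3 and Aqp7), or 3.79% of the members tested, beside 3.75% of the protein-coding genes.

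**Figure D4:**
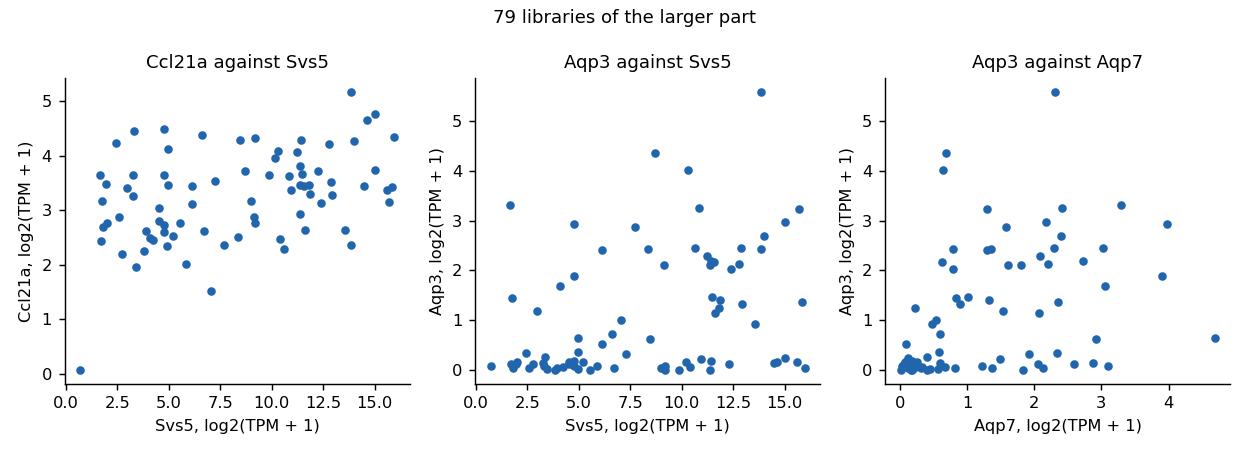
Left to right, log2(TPM + 1) of Ccl21a against Svs5, of Aqp3 against Svs5 and of Aqp3 against Aqp7, with 1 point for each of the 79 libraries of the larger part. Ccl21a rose weakly with Svs5 (r = 0.39), and Aqp3 shows 41 libraries at 0.28 TPM or less across the range of Svs5.

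Chga was tested in the 36 libraries of the smaller part, since in the 79 it separated into 72 libraries at 0.06 to 0.81 TPM and 7 at 1.19 to 4.84 TPM. In the 36 it ran from 0.15 to 479 TPM with a median of 57.2 TPM, and 4 libraries at 0.15 to 2.55 TPM lay apart from 32 at 21.2 to 479 TPM. Of 158 members, 31 rose and 31 fell (19.6% each), beside 11.4% rising and 22.3% falling of all 15511 genes. Without the 4 lower Chga libraries 20 members rose and 2 fell (Tmod1 and Mob3b), beside 8.80% and 0.21% of all genes. On ranks 7 rose and 0 fell, beside 1.46% and 0.058% of all genes.

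The 7 called on ranks were Rragd, Enho, Ankrd6, Tox, Rab2a, 2610301B20Rik and Impad1. Rragd, a GTPase that signals amino acid supply to mTORC1, ran from 0.32 to 10.5 TPM and had r = 0.79 (adjusted p = 4.84e-07), rho = 0.61 (permutation p = 8e-05) and r = 0.61 without the 4 libraries (adjusted p = 0.0101). Rab2a ran from 40.99 to 124 TPM and had r = 0.68 (adjusted p = 0.000149), rho = 0.75 (permutation p = 1e-05) and r = 0.56 without the 4 (adjusted p = 0.0258). Both thus rose with Chga also among the 32. Tox ran from 0.1 to 21.9 TPM with r = 0.74, and 2610301B20Rik from 2.28 to 9.13 TPM with r = 0.68, their r without the 4 being 0.47 and 0.60 (adjusted p = 0.0508 and 0.0149). For Necab1, a calcium-binding protein of neurons, r was 0.69 over the 36 and 0.21 among the 32 (adjusted p = 0.473).

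Of the 6 members with the lowest r with Chga, 5 could be tested without the 4 libraries, and none of the 5 was called there. Ggh, which trims the glutamate tail of folates, ran from 3.97 to 69.9 TPM with r = -0.73 over the 36 and 0.14 over the 32. For Tln1, the integrin-linking protein talin, r was -0.63 and 0.19, for Plekhf2 it was -0.62 and 0.42, for Cpne3 it was -0.60 and 0.031, and for Tdrd7 it was -0.73 and -0.34. Adjusted p over the 32 ran from 0.114 to 0.945. Nkain3, which had r = -0.78 over the 36, was under the mean of 1 TPM among the 32 and was not tested there. Of the 8 proliferation genes 1 fell with Chga, and all 7 other neuroendocrine genes tested rose.

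Chd7 separated inside the smaller part, into 7 libraries at 6.91 to 24.4 TPM and 29 at 42.4 to 117 TPM, and the 4 lower Chga libraries were all among the 7. Within the 29 no relation with Chga was detectable (r = -0.13, permutation p = 0.52). Within the 7 r was 0.90 (exact permutation p = 0.0409, adjusted 0.102 over 15 relations of this kind). That r spans the gap in Chga between the 4 lower Chga libraries and the rest of the 7. In all, 9 of 158 members tested there (5.70%) had separate states, beside 5.82% of 12880 protein-coding genes. The others besides Chd7 were Esrp1 (20 libraries at 0 to 0.25 TPM and 16 at 0.51 to 38.99 TPM), Kif24 (29 at 6.89 to 41.4 TPM and 7 at 61.8 to 913 TPM), Cntfr, Pax5, Igfbpl1, Tmod1, Ccl21a and Gm21541. The 4 lower Chga libraries were in the higher state of Esrp1 and Igfbpl1 and in the lower state of the remaining 7, Chd7 included.

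**Figure D5:**
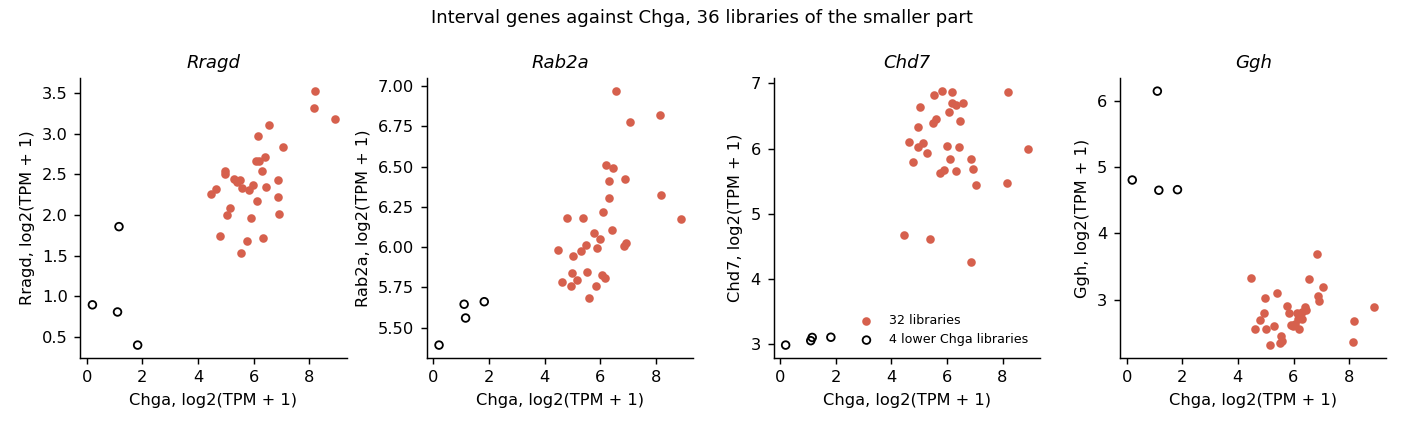
The log2(TPM + 1) of Rragd, Rab2a, Chd7 and Ggh against that of Chga in the 36 libraries of the smaller part, with the 4 lower Chga libraries open and the other 32 filled. Rragd and Rab2a rise among the filled points as well (r = 0.61 and 0.56), while Ggh is higher in the 4 open points only.

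The correlation between members was set beside their distance on the chromosome. Within the larger part, on TPM, the median r was 0.58 over 185 pairs of members less than 0.1 Mb apart, 0.56 over 669 pairs 0.1 to 1 Mb apart, 0.57 over 2991 pairs 1 to 10 Mb apart and 0.57 over 4801 pairs farther apart. For protein-coding genes of every chromosome the medians at the same distances were 0.59, 0.53, 0.52 and 0.51. Under median-of-ratios scaling the members gave 0.12, 0.040, 0.045 and 0.043 and all protein-coding genes 0.15, 0.059, 0.034 and 0.024, so the nearest pairs had the highest median in both. The same held within the smaller part, where the members gave 0.36, 0.19, 0.17 and 0.14 on TPM and all protein-coding genes 0.40, 0.32, 0.26 and 0.23. Of the 227 members, 24 had a near-identical transcript of another gene and 66 shared exon bases with one, and 6 and 47 of the 130 detected members did.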

How the data were processed

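RNA-seq of prostate libraries of 1 group was analysed. Per the labels, total RNA was depleted of ribosomal RNA (Ribo-Zero Gold) before Illumina sequencing, and the notes list CASAVA 1.8.2, Bowtie2 2.2.5, RSEM 1.2.20 and GRCm38. The authors trimmed reads, aligned them to allele-specific transcripts and deposited TPM, which keep no depth, so precision from counting is unknown. Strand use in counting is not given in the sources used here.

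Gene types, positions and exons came from GENCODE M21, which held 45136 of 45699 identifiers. Fits used limma 3.58.1 (trend; R 4.3.3) on log2(TPM + 1) for genes that averaged 1 TPM or more, and were tested on simulated data. Libraries were split where 2 normal distributions described them better than 1, that is, with a fall in BIC above 10, an Ashman D above 2 and no fewer than 6 libraries on either side. For 43 relations, r and rho had two-sided tests with 100000 permutations. Similar transcripts were found with BLAST+ 2.17.0 (95% identity, 80% coverage). Each library has its own name in the labels and was taken as 1 mouse.

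Named members were the 10 highest means, the 5 largest percentile ratios, the leading member of each list, those with separate states, and up to 6 members (10 for Svs5) at each end of r among those called; others are said to have been chosen later. Members and lists were chosen with earlier results of these data known.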

Additional observations from a re-analysis of the deposited data

How the results depend on the processing

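TPM hold no counts, so depth could not be weighed, and every relation depends on how the few dominant genes scale a library. No paired analysis was possible because every mouse belongs to the same group and no test compares groups. The number of members associated with Svs5 was 1 and became 2 with a pseudocount of 0.1, 14 with median-of-ratios scaling, 9 after rescaling without the 20 largest genes, 2 with no filter, 3 on ranks, 0 in the smaller part, 3 over all libraries with a term for the part, 6 without the 2 farthest libraries, 10 with the other 3 markers as covariates, 0 in the 37 lower and 3 in the 42 higher Svs5 libraries, and 2 without the 6 libraries named in series. Of all genes, 1.74% rose and 0.171% fell with Svs5 at a pseudocount of 0.1, and 4.28% and 1.11% without the 20 largest genes. These shares were 1.18% and 0.0711% with no filter, and 1.39% and 0.0479% over all libraries with a term for the part. In the 42 higher Svs5 libraries they were 2.15% and 0.759%. For Mki67 the number became 54, 62 and 68 with median-of-ratios scaling, without the 20 largest genes and in the smaller part. In the smaller part 47 rose and 21 fell (29.7% and 13.3%), beside 27.3% and 18.2% of all genes. For Chga the number was 62 and became 7 on ranks, 12 without the 2 farthest libraries and 22 without the 4 lower libraries. It became 0 in the 72 and in the 7 libraries of the larger part. Without the 2 farthest libraries 10 rose and 2 fell (6.33% and 1.27%), beside 4.30% and 3.73% of all genes. For Tgm4 the number was 43 and became 92 with median-of-ratios scaling, 71 without the 20 largest genes and 84 with no filter. It became 0 in the smaller part and in the 20 lower Tgm4 libraries. With no filter 35 rose and 49 fell (15.5% and 21.7%), beside 8.24% and 17.7% of all genes. Where 0 members were called by limma in the 37 Svs5, 72 Chga, 7 Chga and 20 Tgm4 libraries, some had an unadjusted p under 0.05. They were 2 of 130, 15 of 131, 2 of 146 and 11 of 139 members, beside 162 of 13308, 1336 of 13277, 337 of 14341 and 1340 of 14196 genes. Splits by the level of a marker inside a part, the states under median-of-ratios scaling, and leaving out the 6 libraries named in series, were chosen after seeing the data. Calls over all genes moved as well, with 591 rising and 527 falling with Svs5 under median-of-ratios scaling, beside 216 and 29 on TPM. The cause of these differences was not tested.

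The number of members with separate states was 11 and became 6 with median-of-ratios scaling, 4 of them shared, and 5 without the 6 libraries named in series. The median r of members less than 0.1 Mb apart became 0.12 with median-of-ratios scaling, 0.36 in the smaller part and 0.089 after removing 3 components.

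Over 33 named relations, 291 alternative values kept direction and call, 53 kept direction only and 37 turned direction. With Msmb for Tgm4, r became -0.44 for Ufl1, -0.47 for Fut9, -0.12 for Pm20d2, -0.16 for Vcp, -0.13 for Nudt2, -0.39 for Tox, 0.41 for Gem, 0.60 for Mob3b, 0.62 for Chd7, 0.51 for Ccl27a, 0.65 for Gne and 0.52 for Lyn. In the 20 lower Tgm4 libraries r became 0.38 for Mob3b, 0.12 for Chd7 and 0.085 for Ccl27a. In the smaller part it became -0.027 for Vcp, 0.22 for Gne and 0.23 for Lyn with Tgm4, and 0.32 for Fut9 with Mki67. In the 7 higher Chga libraries of the larger part r with Chga became -0.41 for Rragd, -0.46 for Tox, -0.19 for Chd7, 0.032 for Ggh, 0.029 for Tdrd7, 0.56 for Tln1, 0.22 for Plekhf2 and 0.16 for Cpne3. In the 72 lower ones it became 0.024 for Ggh, 0.13 for Tdrd7, 0.27 for Tln1, 0.13 for Plekhf2 and 0.047 for Cpne3. Among the 32 libraries it became 0.14 for Ggh, 0.19 for Tln1, 0.42 for Plekhf2 and 0.031 for Cpne3, and on ranks 0.11 for Plekhf2.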
